A study of Homo sapiens with 24 samples.

Results

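The peaks described here lie in a pair of stretches of the HIST1 region of chromosome 6 that hold no replication-dependent histone block. On hg19 the stretches run from 26.3 to 27.05 Mb and from 27.2 to 27.75 Mb, 1300 kb in all, and every peak on either strand with its midpoint inside was taken. They held 162 of the 269336 peaks in the 7 lists. By library that was 64 of 74902 and 71 of 97594 in RBFOX2 replicates 1 and 2, then 9 of 23034, 5 of 18349, 1 of 16974 and 3 of 10122 in SLBP replicates 1 to 4, and 9 of 28361 in IgG. The named genes in these stretches are ABT1 (26597100 to 26600300, plus strand), HMGN4 (26538500 to 26547200, plus strand), ZNF322 (26634600 to 26660000, minus strand) and ZNF184 (27418500 to 27440900, minus strand). These ranges are rounded hg19 positions that were not checked against an hg19 annotation, and the GRCh38.p14 gene table gives ZNF184 a longer span, so no peak is assigned to an exon, intron or UTR. Peaks that touched a range by at least 1 nt were counted for the gene, 26 in all.

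The assay was eCLIP, in which RNA crosslinked to a protein by ultraviolet light is precipitated and sequenced beside a size-matched input from the same lysate. All samples were of 293T, a human embryonic kidney cell line that carries the SV40 large T antigen. The RBFOX2 group (Bethyl antibody) had 2 libraries at 40 U of RNase I. The SLBP group (MBL antibody) had 4 libraries, replicates 1 and 2 at 40 U and replicates 3 and 4 at 5 U. The IgG isotype control (Thermo Fisher) had 1 library at 40 U. Each had an input of its own at the same RNase I amount, and of the 24 samples listed, 10 RBFOX2 samples of an RNase I series were not used here. The labels do not say whether replicates were separate cultures, so p-values over libraries measure a spread that may be technical. The lists hold no expression values, so the identity of the cells was not checked.

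RBFOX2 is an RNA-binding splicing regulator that recognises GCAUG elements, which are common in introns beside regulated exons. SLBP binds the stem-loop that ends replication-dependent histone mRNAs, the metazoan mRNAs that carry no poly(A) tail. The genes between the histone blocks are of other families and their mRNAs end in a poly(A) tail, so they sit among SLBP's targets on the chromosome without belonging to its known target class. ABT1 is a nuclear protein that binds the TATA-binding protein and stimulates basal transcription, and its budding yeast homologue Esf2 acts in ribosomal RNA processing. HMGN4 belongs to the HMGN family of nucleosome-binding proteins. ZNF322 and ZNF184 encode C2H2 zinc finger proteins.

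In the GRCh38.p14 gene table, used for names and order alone, the protein-coding genes between the histone genes H4C8 and H2BC11 are BTN3A2, BTN2A2, BTN3A1, BTN3A3, BTN2A1, BTN1A1, HMGN4, ABT1 and ZNF322. The BTN genes encode butyrophilins, immunoglobulin-like membrane proteins. Between H2AC12 and H2BC13 lie PRSS16, POM121L2, LOC105375107, ZNF391 and ZNF184. None of these 9 and 5 genes is a replication-dependent histone gene. The nearest peak outside the stretches lay 14.28 kb before the first one, and the nearest enriched peaks outside, all of SLBP libraries, lay 14.28 and 50.1 kb from the borders of the first stretch and 84.69 and 25.26 kb from those of the second.

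Every fold and p-value of a single peak below is the authors' own, for immunoprecipitation over the paired input. A peak was called enriched when its log2 fold was at least 3, which is 8-fold, and its −log10 p at least 5. Read counts are not in the lists, so the depth behind a fold is unknown. Folds of different lists stand side by side without a test, because no source used here says how the lists were scaled against each other.

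The enriched peaks between the histone blocks all came from RBFOX2 libraries and lay on ABT1. Of the 162 peaks, 135 (83.3%) were from the RBFOX2 lists, 18 (11.1%) from SLBP and 9 (5.56%) from IgG, where these lists supplied 64.0%, 25.4% and 10.5% of all 269336 peaks. Enriched peaks numbered 3 of 64 in RBFOX2 replicate 1 (4.69%, exact 95% interval 0.977 to 13.1) and 2 of 71 in replicate 2 (2.82%, 0.343 to 9.81). Over the whole lists 7.95% and 7.66% of RBFOX2 peaks were enriched, so the share in the stretches was not above the background of the assay. In SLBP replicates 1 to 4 the counts were 0 of 9, 0 of 5, 0 of 1 and 0 of 3, where 1.23%, 1.27%, 1.7% and 2.33% of the whole lists were enriched. In IgG the count was 0 of 9, against 0.18% of its list. The exact upper 95% limits were 33.6%, 52.2%, 97.5% and 70.8% for SLBP replicates 1 to 4 and 33.6% for IgG. These intervals cover counting error only.

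**Figure D1:**
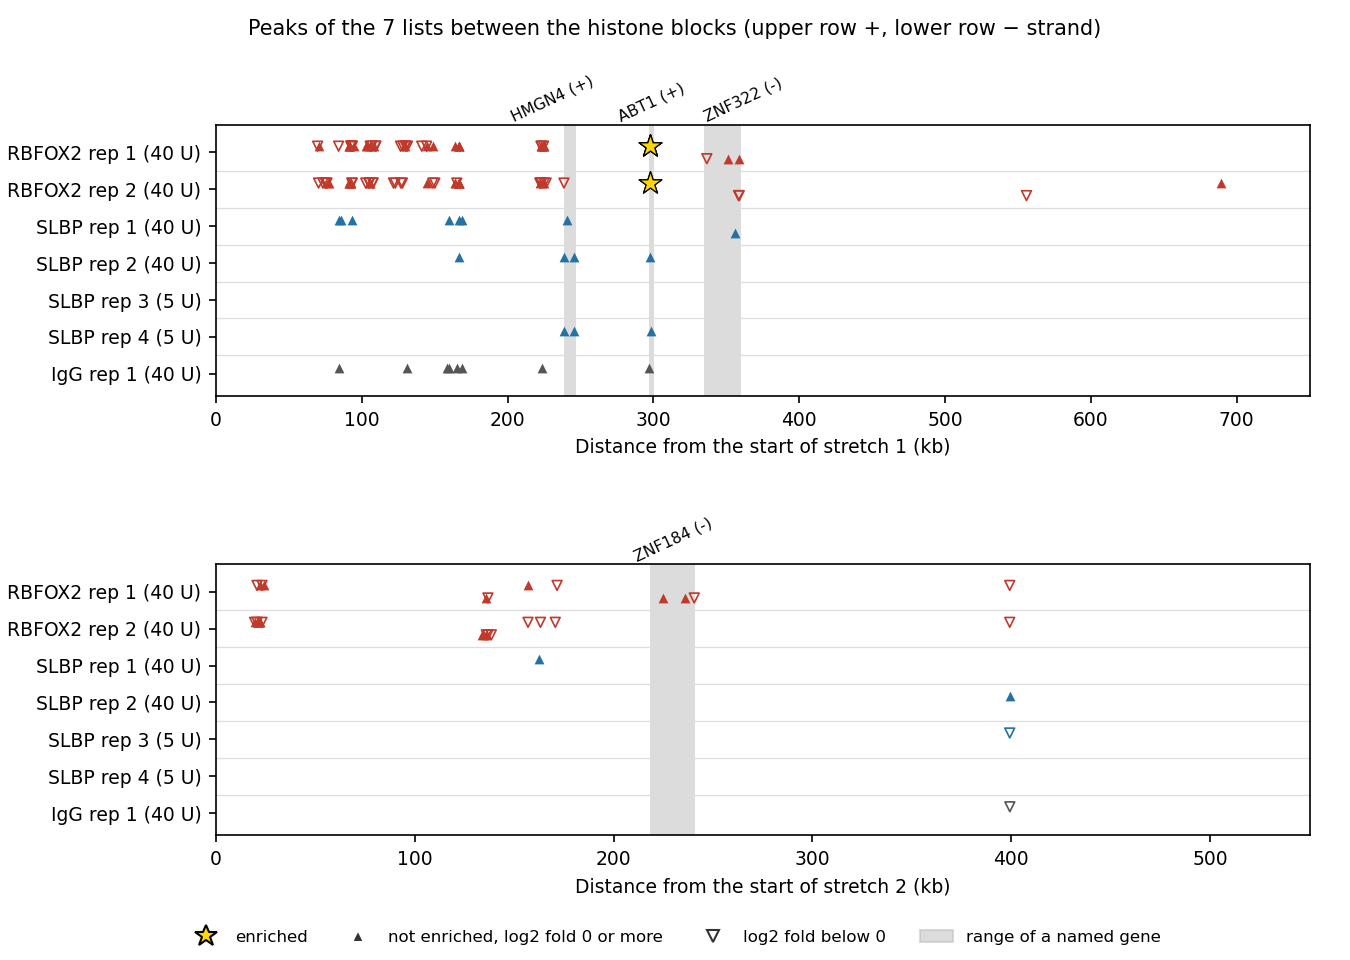
Peaks of the 7 lists along the stretches, as distance in kb from the start of each stretch (x axis), with 1 row per library and its RNase I amount (y axis); plus-strand peaks sit above minus-strand peaks in a row. Stars are enriched peaks, which fall on ABT1 in the RBFOX2 rows alone, where 3 and 2 of them overlie each other and hide the other ABT1 peaks of the row; filled triangles are other peaks at or above input, open triangles peaks below input, and grey bands the ranges of the named genes.

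On ABT1 both RBFOX2 libraries had a compact group of 4 peaks, at nearly the same positions. In replicate 1 the first peak, at 26597481 to 26597558, had a log2 fold of 3.86 and a −log10 p of 8.30. The peak that touches it, at 26597559 to 26597607, had 3.87 and 8.29. The third, at 26597637 to 26597699, had the highest fold of the replicate, 4.01, with a −log10 p of 9.24. These 3 passed both limits, while the fourth, at 26597713 to 26597749, had a log2 fold of 2.11 and a −log10 p of 1.55.

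In replicate 2 the order along the gene was the same but fewer peaks passed. The first, at 26597480 to 26597553, had a log2 fold of 4.09 and a −log10 p of 5.31, just inside the limit on p. The second, at 26597554 to 26597606, had 4.46 and 7.16, the highest log2 fold of this replicate in the stretches. The third, at 26597638 to 26597704, overlapped its replicate 1 counterpart by 62 nt but had 2.30 and 2.84, short of both limits. The fourth, at 26597724 to 26597746, had 0.95 and 0.25.

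The enriched RBFOX2 signal that both libraries shared on ABT1 was thus a single region. It leaves out the enriched replicate 1 peak with the highest fold, whose replicate 2 counterpart was not enriched. Nucleotides covered by enriched peaks in both libraries ran from 26597481 to 26597606, 126 nt on the plus strand, and this was the 1 such region in the stretches. The 4 peaks spanned 269 nt in replicate 1 and 267 nt in replicate 2 and began 381 and 380 nt from the 5′ end of the ABT1 range. Within its own list the highest ABT1 peak was exceeded in fold by 5.19% of peaks in replicate 1 and by 3.03% in replicate 2, so it ranked high without being among the extremes of either list. Touching peaks may be pieces of 1 site: with such peaks merged, the 5 enriched peaks became 3. With stricter limits, a log2 fold of 4 and a −log10 p of 10, the count was 0.

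Libraries of the other antibodies had single weak peaks elsewhere on ABT1. SLBP replicate 2 had 1 peak, at 26597338 to 26597386, with a log2 fold of 2.36 and a −log10 p of 1.38. SLBP replicate 4 had 1, at 26598658 to 26598693, with 2.17 and 0.98. IgG had 1, at 26597294 to 26597318, with 0.90 and 0.38. None of these 3 was enriched, none overlapped an RBFOX2 peak, and 93, 908 and 161 nt separated them from the nearest one. SLBP replicates 1 and 3 had 0 peaks on ABT1.

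**Figure D2:**
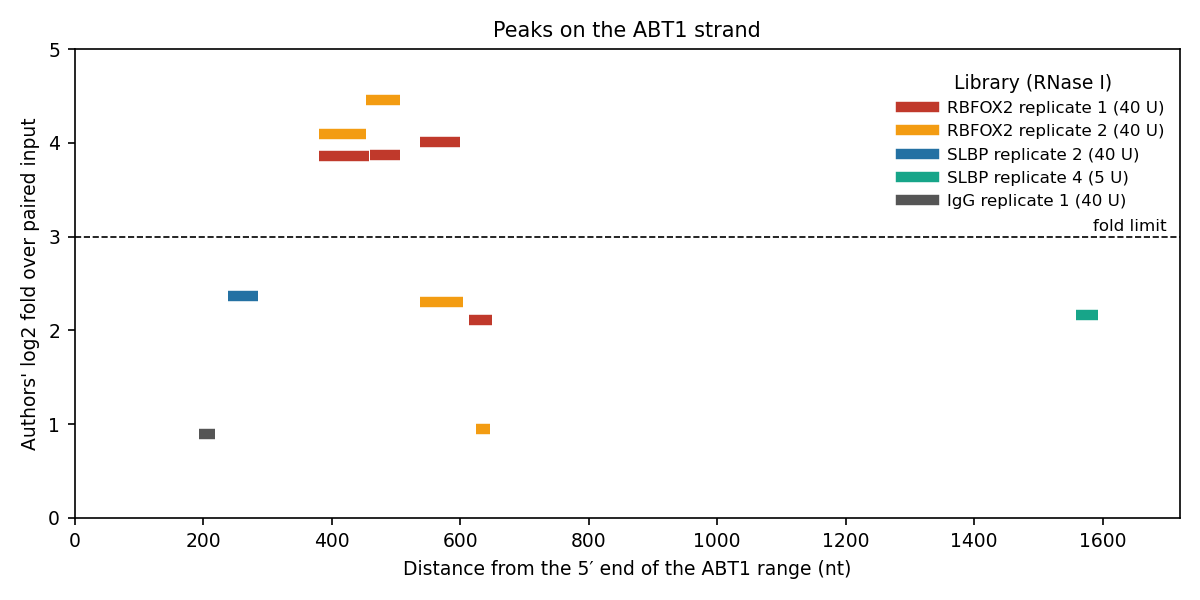
Peaks on the ABT1 strand in the 5 libraries that had any. The x axis is the distance in nt from the 5′ end of the ABT1 range, each bar spans 1 peak, the y axis is the authors' log2 fold over the paired input, and the dashed line is the fold limit of 3. RBFOX2 replicates 1 and 2 coincide between 380 and 649 nt, and the SLBP and IgG bars lie outside that span and below the line.

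HMGN4 showed the reverse make-up, with 5 of its 6 peaks from SLBP lists, 1 from RBFOX2 and 0 from IgG, and none of them enriched. SLBP replicates 2 and 4 had peaks at the same pair of places. At the first, near the 5′ end of the range, SLBP replicate 2 had a log2 fold of 1.04 at 26538650 to 26538699, and SLBP replicate 4 had 0.84 at 26538673 to 26538702. RBFOX2 replicate 2 also had a peak there, at 26538645 to 26538666, but it lay below input with a log2 fold of −0.68.

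The second place lay 6858 to 6915 nt from the 5′ end of the range, which is 8700 nt long. There SLBP replicate 2 had a log2 fold of 0.63 at 26545359 to 26545387 and SLBP replicate 4 had 0.32 at 26545358 to 26545415. SLBP replicate 1 had its only HMGN4 peak between the first and second places, at 26541024 to 26541049, with a log2 fold of 2.83 and a −log10 p of 1.09. The highest −log10 p at the paired places was 0.65, so although they recurred at 40 U and 5 U of RNase I, they stood close to input. RBFOX2 replicate 1, SLBP replicate 3 and IgG had 0 peaks on HMGN4.

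The zinc finger genes had few and scattered peaks. ZNF322 had 6, of which 3 were from RBFOX2 replicate 1, 2 from RBFOX2 replicate 2 and 1 from SLBP replicate 1. In RBFOX2 replicate 1 they had log2 folds of −1.36, 1.22 and 1.22 and widths of 48, 11 and 16 nt. In RBFOX2 replicate 2 they had −0.91 and −1.14 and widths of 19 and 3 nt, both below input. The SLBP replicate 1 peak, at 26656091 to 26656117, had 2.83 with a −log10 p of 1.09. No peak of 1 library overlapped a peak of another on this gene.

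ZNF184 had peaks in RBFOX2 replicate 1 alone, with log2 folds of 1.22, 0.41 and −0.0022 and a highest −log10 p of 0.16. Their widths were 41, 8 and 37 nt. The other 6 lists had 0 peaks on it. Per kb of the gene's range, over all 7 lists, peaks numbered 3.44 on ABT1, 0.69 on HMGN4, 0.24 on ZNF322 and 0.13 on ZNF184. All 26 peaks on the 4 genes lay on the gene's own strand, and 0 lay on the opposite one.

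Some peaks on these genes took values that many peaks of a list share. The SLBP replicate 1 peaks on HMGN4 and ZNF322 had the same log2 fold and −log10 p, and 2655 peaks (11.5%) of that list had exactly this pair. The value of 1.22 on ZNF322 and ZNF184 was shared by 1032 peaks (1.38%) of RBFOX2 replicate 1. The enriched ABT1 pairs were shared by 10 to 23 peaks of the replicate 1 list and by 25 and 40 of the replicate 2 list, each peak counted with itself. Rare pairs were not limited to enriched peaks: the ABT1 peak of replicate 2 with a log2 fold of 2.30 had a pair held by 38 peaks, and the HMGN4 peak of SLBP replicate 4 with 0.32 had a pair held by 28. Over the stretches the 64 peaks of replicate 1 held 33 distinct pairs of values and the 71 of replicate 2 held 35.

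Outside the 4 genes lay 136 peaks, 118 of them from RBFOX2 lists, and 0 were enriched. Peaks on 1 strand within 1 kb of each other, over all lists, formed 48 loci, of which 18 (37.5%) held peaks of both RBFOX2 libraries. RBFOX2 peaks without any SLBP or IgG peak were found at 32 loci (66.7%), and SLBP peaks without any RBFOX2 peak at 6 (12.5%). Loci joined in the same way over the whole lists numbered 65950, and the corresponding shares were 36.7%, 50.8% and 18.6%. The RBFOX2 lists are the longest, which these shares do not correct for. A single peak made up 21 of the loci (43.8%, against 44.9% of loci over the whole lists). No locus held peaks of more than 5 libraries, and 3 reached 5, of which ABT1 was 1.

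Another locus with 5 libraries lay on the plus strand at 26465146 to 26466933 and held 14 peaks. RBFOX2 replicate 1 had 4 there, with log2 folds of 0.32 to 3.17, and replicate 2 had 7, with −0.81 to 1.82. SLBP replicates 1 and 2 had 1 each, at 1.83 and 1.63, and IgG had 1 at 0.90. The RBFOX2 replicate 1 peak of 3.17 passed the fold limit but its −log10 p was 2.15. As deposited, the SLBP values fell inside the RBFOX2 range, though how the lists were scaled against each other is not known.

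The third was short, at 27599197 to 27599297 on the plus strand, with 1 peak in each of 5 libraries and 4 of them below input. RBFOX2 replicates 1 and 2 had −0.28 and −2.61, SLBP replicates 2 and 3 had 0.63 and −1.74, and IgG had −1.45. This was the only place in the stretches with a peak of SLBP replicate 3.

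Of the other loci described, 4 had peaks in 3 libraries, and 3 were taken from the 18 loci with 2 libraries because they held the most peaks. On the plus strand at 26391106 to 26393450, RBFOX2 replicates 1 and 2 had 9 and 8 peaks, with highest log2 folds of 2.998 and 1.99, and SLBP replicate 1 had 1 at 2.83. At 26522097 to 26523334, RBFOX2 replicates 1 and 2 had 5 and 4 peaks, with highest folds of 1.11 and 0.19, and IgG had 1 at 1.31. Within its own list, the highest fold of replicate 1 exceeded 56.7% of peaks and that of replicate 2 exceeded 33.3%. The IgG fold exceeded 47.7% of its list. At 26384018 to 26384123, RBFOX2 replicate 1 had −0.89, SLBP replicate 1 had 1.66 and IgG had 0.14.

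At 26404287 to 26408267 and at 27219406 to 27223149 there were 11 peaks each, all from RBFOX2 lists, with highest log2 folds of 2.87 and 1.03. At 26524426 to 26525078 there were 6, again from RBFOX2 alone, with a highest fold of 1.41. The HMGN4 place near its 5′ end, with 3 libraries, completes the 10, which together held 92 of the 162 peaks, a total raised by the choice of loci with many peaks.

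No other peak came near the limit on p. Besides the 5 enriched ones, 14 peaks had a log2 fold of at least 2, and 2 of them reached 3: the RBFOX2 replicate 1 peak at 26466561 to 26466614 and an IgG peak at 26458294 to 26458328, with 3.31 and a −log10 p of 1.58. The highest −log10 p outside ABT1 was 2.98, in RBFOX2 replicate 1 at 26391571 to 26391651, with a log2 fold of 2.73. All 5 peaks that passed the p limit also passed the fold limit.

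**Figure D3:**
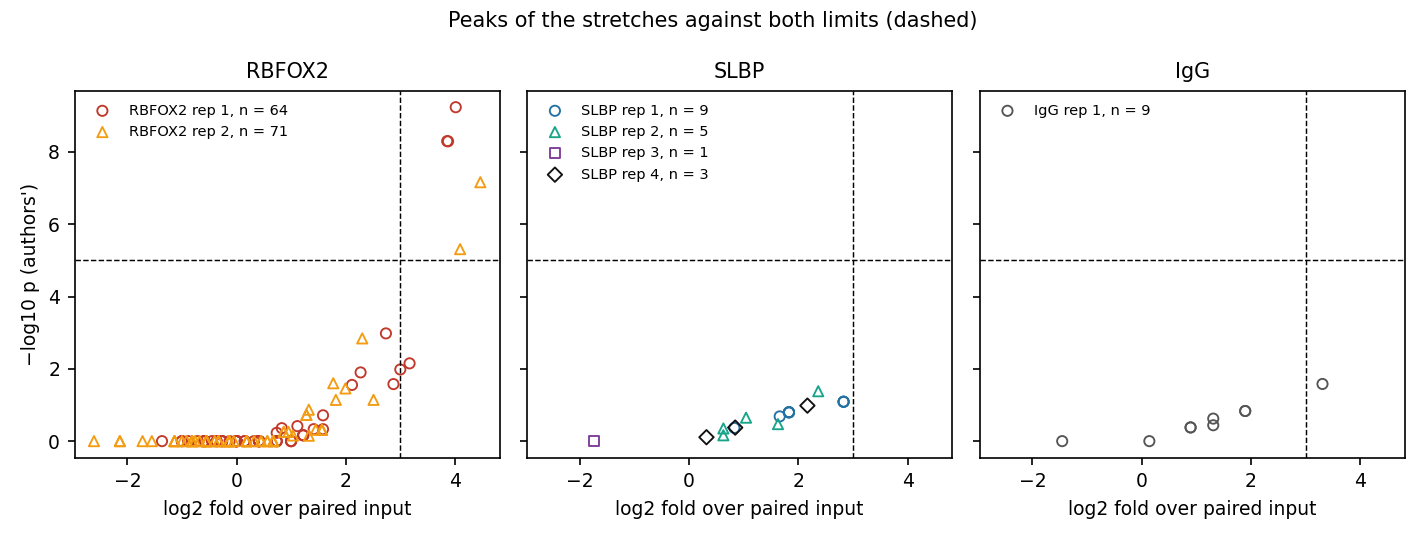
Each peak of the stretches by its log2 fold over the paired input (x axis) and its −log10 p (y axis), both the authors' values, with 1 panel per antibody and 1 symbol per library; dashed lines are the limits of 3 and 5. The 5 points beyond both lines are the ABT1 peaks of RBFOX2, and outside ABT1 no point rises above 2.98.

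The peaks were concentrated on the plus strand and in the first part of the first stretch. Of the 162 peaks, 145 (89.5%) lay on the plus strand, 56 of 64 and 63 of 71 in RBFOX2 replicates 1 and 2, 17 of 18 in SLBP and 9 of 9 in IgG. Over the whole RBFOX2 lists 38010 and 50071 peaks lay on the plus strand, close to an even division. The first stretch held 129 peaks, 17.2 per 100 kb, and the second 33, or 6 per 100 kb. With peaks within 20 kb joined, a description chosen after the data were seen, the span from 26369694 to 26469039 held 87 peaks, 53.7% of the total, all on the plus strand and 0 enriched.

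The RBFOX2 replicates overlapped at part of their peaks in the stretches. Both shares were lower than those of the whole lists, only slightly so in replicate 2, and this was not tested. Of the replicate 1 peaks, 30 (46.9%) overlapped a replicate 2 peak by at least 1 nt on the same strand, against 60.6% over its whole list. Of the replicate 2 peaks, 31 (43.7%) overlapped one of replicate 1, against 47.9% over its whole list. Without ABT1 the counts were 26 of 60 (43.3%) and 27 of 67 (40.3%). For 24 replicate 1 peaks whose midpoint fell in a replicate 2 peak, Spearman's rho between the folds was 0.61 and Pearson's r 0.70; without the 4 on ABT1 they were 0.42 and 0.49. This describes peaks of 2 libraries, which are not independent replicates. In 7 of the 24 pairs the sign of the log2 fold differed between replicates.

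Many RBFOX2 peaks in the stretches had a negative log2 fold, that is, lay below input, in shares that stood at or above those of the whole lists. In RBFOX2 replicate 1, 28 of 64 (43.8%, exact 95% interval 31.4 to 56.7) did so, against 32.6% of the list, which lies inside the interval. In replicate 2 it was 38 of 71 (53.5%, 41.3 to 65.5), against 31%, which lies below it. These intervals count peaks as independent, though neighbouring peaks may be pieces of 1 site, so they may be too narrow. In SLBP replicates 1 to 4 the counts were 0 of 9, 0 of 5, 1 of 1 and 0 of 3, against 7.02%, 9.45%, 23.4% and 17% of the lists. In IgG it was 1 of 9, against 10.7%.

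The below-input shares averaged 48.6% ± 6.9 (SD, n = 2) in RBFOX2 and 25% ± 50 (SD, n = 4) in SLBP, a difference that did not pass an exact permutation test (p = 0.80, two-sided). The SLBP mean rests on the single peak of replicate 3: without that library it was 0 and the difference 48.6 percentage points (exact permutation p = 0.20, the smallest that design allows).

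Relative to list length, RBFOX2 had more peaks in the stretches than SLBP. RBFOX2 replicates 1 and 2 had 8.54 and 7.28 per 10000 list peaks, SLBP replicates 1 to 4 had 3.91, 2.72, 0.59 and 2.96, and IgG had 3.17. The groups did not overlap, and IgG lay within the SLBP range. The means were 7.91 ± 0.90 (SD, n = 2) in RBFOX2 and 2.55 ± 1.40 (SD, n = 4) in SLBP (exact permutation p = 0.133, two-sided). SLBP replicates 3 and 4 were at 5 U of RNase I, while RBFOX2 was at 40 U alone. The difference was 5.36 against all SLBP libraries and 4.59 against those at 40 U (exact permutation p = 0.333, two-sided, the smallest possible). The enriched share differed in the same direction, 3.75% ± 1.32 (SD, n = 2) in RBFOX2 and 0 in all 4 SLBP libraries (exact permutation p = 0.133, two-sided). Over the whole lists the enriched shares also differed, at 7.95% and 7.66% in RBFOX2 against 1.23% to 2.33% in SLBP. The difference was thus not particular to the stretches, where the SLBP lists held 9, 5, 1 and 3 peaks. An exact permutation p of 0.133 is the smallest that 2 against 4 libraries can give, so neither stretch difference could pass 0.05.

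SLBP libraries at 5 U of RNase I had 0.59 and 2.96 stretch peaks per 10000 list peaks, and those at 40 U had 3.91 and 2.72. The means were 1.78 ± 1.68 at 5 U and 3.32 ± 0.84 at 40 U (SD, n = 2 each), and the ranges overlapped (exact permutation p = 0.667, two-sided, with 0.333 the smallest possible). The overlap depends on the denominator: per 1000 peaks of chromosome 6 the values were 0.98 and 4.48 at 5 U and 7.25 and 5.01 at 40 U, which do not overlap (exact permutation p = 0.333, two-sided). RNase I amount changes together with replicate number, so they cannot be told apart. Without replicate 3 the difference shrank to −0.35, and without replicate 4 it was −2.73.

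SLBP peaks were enriched in the rest of HIST1, taken as chromosome 6 from 26 to 28 Mb outside the stretches, and not inside them. In SLBP replicates 1 to 4 the stretches held 0 enriched peaks among 9, 5, 1 and 3. In the rest of HIST1 the enriched shares were 95.2%, 95.9%, 92.0% and 96.8% of 207, 170, 249 and 188 peaks. The exact 95% intervals of the stretches and the rest did not overlap in replicates 1, 2 and 4. In replicate 3, with a single stretch peak, the stretch interval reached 97.5% and covered the share in the rest. The mean difference, stretches minus rest, was −95.0 percentage points, negative in 4 of 4 libraries (exact sign-flip permutation p = 0.125, two-sided, the smallest possible). The stretches were chosen as the parts of HIST1 without the histone blocks that hold SLBP's known targets. This sign could thus be foreseen from the choice, and the p-value adds no support. In RBFOX2 replicates 1 and 2 the shares were 4.69% and 2.82% in the stretches, against 0 of 72 and 0 of 94 in the rest of HIST1. The exact upper 95% limits in the rest were 4.99% and 3.85%. The exact 95% intervals of the stretches and the rest overlapped in both RBFOX2 libraries. Such an overlap does not decide whether the shares differ, and with 2 libraries the difference was not tested. In IgG they were 0 of 9 in the stretches and 0 of 47 in the rest.

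The below-input shares of RBFOX2 were lower in the stretches, at 43.8% and 53.5% in replicates 1 and 2, against 84.7% and 97.9% in the rest of HIST1; with 2 libraries this was not tested. The median log2 folds were 0.41 and −0.14 in the stretches, against −0.89 and −1.49 in the rest. In SLBP replicates 1 to 4 they were 1.83, 1.04, −1.74 and 0.84 in the stretches, against 5.998, 7.49, 5.24 and 6.65 in the rest. The highest stretch fold of each SLBP library, 2.83, 2.36, −1.74 and 2.17, lay below the median of the same library in the rest of HIST1.

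**Figure D4:**
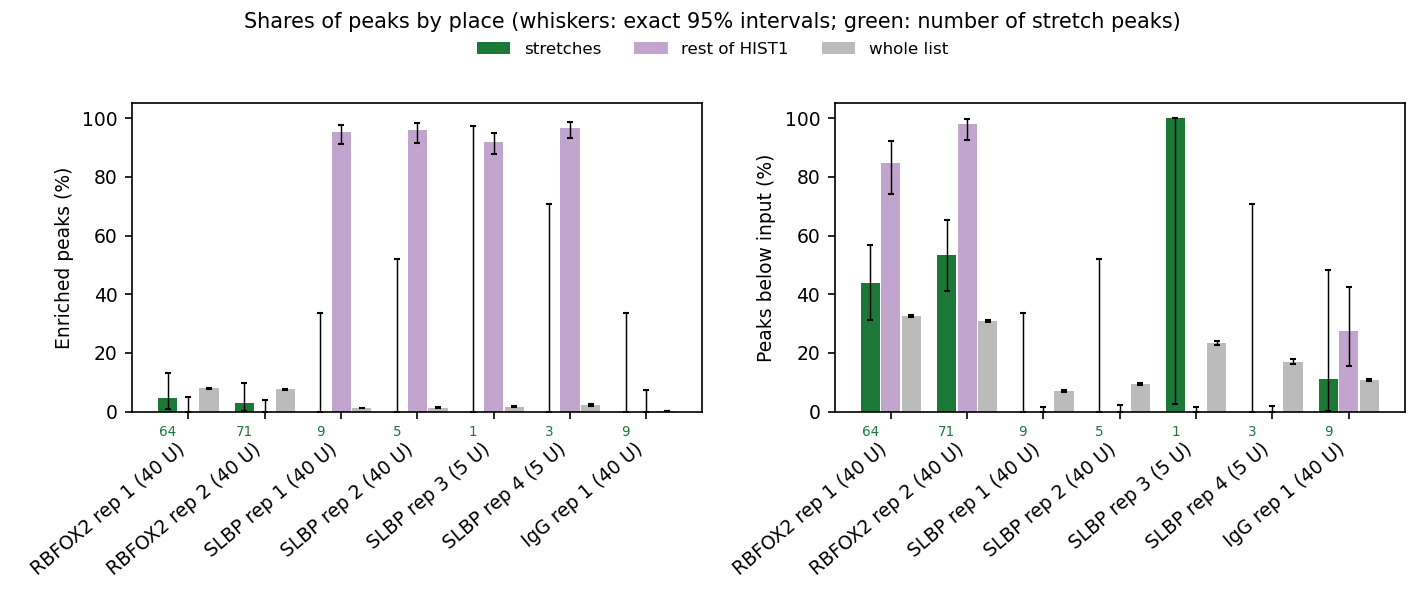
Shares of enriched peaks (left) and of peaks below input (right), in percent, for each library in the stretches, in the rest of HIST1 and in the whole list; whiskers are exact 95% intervals for counting error, and the small numbers give the peaks of the stretches. In the rest of HIST1 over 90% of SLBP peaks were enriched while the stretches show 0, and the SLBP replicate 3 bar at 100% below input is a single peak.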

How the data were processed

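The authors deposited 1 peak list per immunoprecipitation, without a header, on hg19. The submitters' processing notes name cutadapt, STAR, GATK, Picard and SAMtools, with no version. No source used here names the peak caller or says how folds over input were made. The deposited −log10 p and the deposited log2 fold of each peak, whose units follow from their ranges and the list names, were used as they stand. Lists held 10122 to 97594 peaks; read depth is unknown.

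Peaks were placed by midpoint and overlaps counted from 1 nt on the same strand, in Python 3.11.15 with pandas 2.3.3. Coordinates count from 1. Comparisons between libraries used exact permutation tests, two-sided (SciPy 1.17.1), and interval and merging code was checked on made-up peaks with known answers. Genes and loci are named by rule: the 4 genes, loci with an enriched peak, and the 10 loci with peaks of the most libraries. The members, limits and lists were chosen with earlier results of these data known. Without an hg19 genome, sequences and motifs were not analysed here. Alternatives changed the limits, merging, placement, strand, denominator, gene ranges and the libraries used.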

Additional observations from a re-analysis of the deposited data

Results flagged for a closer look

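SLBP replicate 3 stood apart from the other SLBP libraries in the stretches: 100% of its peaks there lay below input, against 0% in replicates 1, 2 and 4, and its highest log2 fold was −1.74, against 2.83, 2.36 and 2.17. Both values are of its only peak, so they carry no spread. A share from 1 peak can only be 0% or 100%, and how often chance would set a library apart in this way was not estimated.

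The difference in enriched share between the stretches and the rest of HIST1 was 4.69 and 2.82 percentage points in RBFOX2 replicates 1 and 2. There it rests on 3 and 2 peaks of ABT1, the exact intervals overlapped, and it was not tested. In all 4 SLBP libraries the difference was negative, with a mean of −95.0. The gap between antibodies was 98.7 percentage points (exact permutation p = 0.133, two-sided, the smallest that 2 against 4 libraries can give). Nearly all of it is the SLBP difference, which rests on 9, 5, 1 and 3 stretch peaks. Its sign could be foreseen from the choice of stretches without histone blocks.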

How the results depend on the processing

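Of 91 recomputed values, 85 kept their direction or count and 0 reversed. The tally overstates stability, since counts of enriched peaks and regions could not reverse. Some alternatives also had little room to change a value. Taking only peaks wholly in a stretch left each main value as it was, and leaving out an SLBP library left its enriched share in the stretches at 0. With stricter limits the enriched share in the stretches was 0 in every library, so the difference between RBFOX2 and SLBP, the RBFOX2 difference between the stretches and the rest of HIST1, the enriched ABT1 peaks and the reproducible RBFOX2 regions all became 0. On the minus strand alone the RBFOX2 difference between the stretches and the rest was also 0. With touching peaks merged, ABT1 had 3 enriched peaks. HMGN4, ZNF322 and ZNF184 had 0 enriched peaks under every limit, range and strand tried.

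Leaving out 1 library at a time, the RBFOX2 minus SLBP difference ran from 2.82 to 4.69 percentage points for enriched shares, from 15.3 to 48.6 for below-input shares and from 4.71 to 5.998 for peaks per 10000. The difference of 5 U minus 40 U ran from −2.73 to −0.35, and that of the stretches minus the rest in SLBP from −96.0 to −94.3. Minus-strand shares had no value where an SLBP list held no such peak. With the replicate number as a block (replicate block, numbers 1 and 2), the RBFOX2 minus SLBP differences were 3.75, 48.6 and 4.59. Nothing in the labels ties these numbers across antibodies. SLBP replicates 1 and 2 are the 40 U libraries, so these are also the differences at equal RNase I amount. Without the block, the exact permutation p for each was 0.333, two-sided, the smallest possible. No p could pass 0.05 in these designs, so they say nothing on stability, and the unknown read depth limits every single fold.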

Other observations

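Large parts of both stretches held no peak of any list. The longest such span was 197 kb in the first stretch, from 26658871 to 26855879, and 158.6 kb in the second, from 27440573 to 27599196, which are 26.3% and 28.8% of the stretches. In the first stretch 2 peaks lay beyond ZNF322, both from RBFOX2 replicate 2, on the minus strand at 26855880 to 26855890 and on the plus strand at 26989179 to 26989233, with log2 folds of −0.55 and 0.45. The GRCh38.p14 table lists 47 tRNA genes between H4C8 and H2BC11 and 51 between H2AC12 and H2BC13. Peaks were not matched to tRNA genes, since the builds differ.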
